A study of Mus musculus with 3 samples.

Results

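The cytosolic and mitochondrial heat shock proteins were described as a list of 10 genes of the 55826 gene names that the files of the series hold between them. The 10 were taken by name: Hspa8, Hspa1a, Hspa1b, Hsph1, Dnaja1, Dnajb1, Hsp90aa1, Hsp90ab1, Hspd1 and Hspe1. The study used L929, an established mouse fibroblast line, and compared cells labelled as an Rrm2 knockdown with cells labelled control. Rrm2 encodes the small subunit of ribonucleotide reductase, which makes deoxynucleotides for DNA synthesis. Both conditions were measured by 2 methods, CBTi-seq and a 3′ method, in 3 samples. The CBTi-seq sample holds 10 columns named control and 10 named knock, and in the 3′ method 1 sample is labelled control and 1 is labelled knock, with 8 columns each. How the knockdown was made, how control cells were treated, and how many clones or cultures stood behind a column are points that the sources used here do not give. The protocol is worded alike for all the samples, with cells picked singly by capillary and their RNA reverse transcribed from oligo-dT with template switching and amplified by PCR.

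Heat shock proteins are chaperones that hold and fold other proteins. An Hsp70 binds a stretch of an unfolded client, a J-domain protein brings the client and starts ATP hydrolysis, and an exchange factor such as Hsp110 releases the nucleotide so that the client is let go. Hsp90 takes late folding steps of kinases and steroid receptors handed on from Hsp70, and the barrel of Hsp60 with its lid Hsp10 folds proteins imported into the mitochondrial matrix. Hspa8, Hsp90ab1, Hspd1 and Hspe1 are made in unstressed cells, whereas Hspa1a and Hspa1b are the textbook stress-induced Hsp70 genes. On heat or other protein damage the transcription factor HSF1 binds heat shock elements, which are inverted repeats of the letters GAA, in the promoters of these genes.

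Promoters are shown first, because the members are known as targets of this factor and because Hspd1 shares a region with Hspe1 and Hspa1a has nearly the same letters as Hspa1b. In the RefSeq promoter table (build GRCm38.p6, each window running from 250 bases before to 50 after a start) 7 of the 10 members had an entry, with 12 windows between them. Both strands were searched for the 3-unit element GAANNTTCNNGAA and for its 2-unit parts GAANNTTC and TTCNNGAA, which overlap the 3-unit element wherever it is found. The 3-unit element was found in 198 of the 32851 windows of the table, or 0.603%, and the 2-unit forms in 7.86% and 8.52%. Of the members, Hspe1, Hspd1 and Hsph1 held a 3-unit match, Hspa1a, Hspa1b and Dnaja1 held only GAANNTTC, and neither window of Dnajb1 held any form. Hspd1 and Hspe1 lie head to head on opposite strands, and the window of Hspe1 and one of those of Hspd1 cover the same 285 bases, so that a single stretch of 18 bases holds the overlapping matches of both. The 250 bases before the start of Hspe1 (chr1:55087898-55088147, plus strand) and those of Hspa1a (chr17:34972157-34972406, minus strand) and Hspa1b (chr17:34959239-34959488, minus strand) are given 5′ to 3′, with the matches in capitals. The match begins 89 bases before the start of Hspe1 and 104 bases before the starts of Hspa1a and Hspa1b.
Hspe1: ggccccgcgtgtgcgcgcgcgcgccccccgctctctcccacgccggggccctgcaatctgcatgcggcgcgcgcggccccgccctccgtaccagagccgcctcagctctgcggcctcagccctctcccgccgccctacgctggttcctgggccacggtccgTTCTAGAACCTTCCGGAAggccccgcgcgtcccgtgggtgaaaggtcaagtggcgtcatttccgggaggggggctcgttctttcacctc
Hspa1a: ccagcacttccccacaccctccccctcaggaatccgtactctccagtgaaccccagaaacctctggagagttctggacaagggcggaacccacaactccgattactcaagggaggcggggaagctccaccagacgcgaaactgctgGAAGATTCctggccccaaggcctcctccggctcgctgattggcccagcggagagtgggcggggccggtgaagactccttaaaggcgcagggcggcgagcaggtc
Hspa1b: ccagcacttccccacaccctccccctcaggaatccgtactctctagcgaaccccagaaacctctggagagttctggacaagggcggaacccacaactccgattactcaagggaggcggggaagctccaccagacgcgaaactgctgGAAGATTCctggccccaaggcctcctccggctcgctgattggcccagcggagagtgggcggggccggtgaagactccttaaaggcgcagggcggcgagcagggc
The Hspa1a and Hspa1b stretches differ at 3 bases. A match is a description of letters and was not tied to any binding measurement here.

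A second sequence matters for reading the counts of Hspa8. The processed pseudogene Gm15459 (chr5:5781615-5783555, minus strand, GRCm38, GENCODE vM21) is a copy of the Hspa8 coding sequence without introns, 99.7% identical over its 1941 bases. Only 5 substitutions separate them. Counted from the first base of the copy, with the Hspa8 base first, they are G114A, C414T, C549T, G1222A and C1440T. The first and the last are shown in windows of 61 bases of the transcripts, with the differing base in capitals.
Hspa8 at G114A: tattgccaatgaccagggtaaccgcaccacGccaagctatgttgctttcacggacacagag
Gm15459 at G114A: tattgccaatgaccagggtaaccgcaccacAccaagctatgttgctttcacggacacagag
Hspa8 at C1440T: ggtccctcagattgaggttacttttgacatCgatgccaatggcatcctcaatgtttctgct
Gm15459 at C1440T: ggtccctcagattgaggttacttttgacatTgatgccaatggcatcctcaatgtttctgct
The copy pairs with the Hspa8 transcript of 2394 bases from base 371 on, and only 83 bases of Hspa8 lie beyond the end of the paired stretch.

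Levels are given as CPM, the count scaled to the total of a column or of the summed columns of a group, which is a share of the library, so a higher level of a member and a lower level of other genes cannot be told apart. Columns of a sample are not replicates. Both CBTi-seq groups come from 1 sample while each 3′ group is 1 sample, so no test was run. The intervals given are 95% intervals of counting error alone, exact Poisson for a level and exact conditional binomial for a ratio. They treat every count as an independent molecule. CBTi-seq columns held 41570 to 846819 counts in control cells and 153051 to 735871 in knock cells. The 3′ columns held 399393 to 2496457 counts in the library labelled control and 814960 to 1973137 in that labelled knock. In CBTi-seq, Rrm2 stood at 481 CPM in control cells and at 350 CPM in knock cells (log2 ratio -0.46, -0.56 to -0.35), with overlapping columns. In the 3′ method Rrm2 went against the labels, at 39.1 CPM for the library labelled control and 148 CPM in that labelled knock (log2 ratio 1.92, 1.74 to 2.12), so every 3′ direction given here is between libraries as labelled. Whether the labels of these libraries were exchanged cannot be told from the files. If they were, every 3′ log2 ratio would have the opposite sign, and each likeness or contrast with CBTi-seq below would turn with it. Of 12 fibroblast marker genes, CBTi-seq gave counts for 10 in control and 11 in knock cells, and the 3′ libraries labelled control and knock gave them for 11 and 12. Thy1 was among those without a count in CBTi-seq, and Col3a1 in the 3′ library labelled control. The pan-leukocyte marker Ptprc had no count anywhere. Fibroblast markers summed to 2090 to 3650 CPM over the control columns and 2000 to 3350 over the knock columns of CBTi-seq, and in the 3′ method to 1690 to 1960 and 3080 to 3310. Macrophage markers summed to 18.7 to 181 and 10.6 to 50.1 CPM over the control and knock columns of CBTi-seq, and to 65.5 to 120 and 136 to 190 in the libraries of the 3′ method labelled control and knock. Epithelial markers summed to at most 6.18 CPM in a CBTi-seq column, and to 139 to 252 and 90.7 to 174 CPM in the 3′ libraries. Immediate early genes, which rise on handling, had summed medians of 602 and 411 CPM in control and knock columns of CBTi-seq, and of 158 and 183 CPM in the 3′ libraries, and their part in the results was not tested. None of 5 endothelial markers had a row in CBTi-seq, and they summed to 18.4 to 49.1 CPM over the 3′ columns.

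In CBTi-seq all 8 members that reached a mean of 50 CPM were somewhat higher in knock cells, by log2 ratios of 0.12 to 0.35. Of all 5243 genes at that level, 49.1% were higher and 50.9% lower. More abundant genes leaned upward: of the 2792 genes at 100 CPM or more, 56.8% were higher, with a median log2 ratio of 0.05. The 6 members at that limit were all higher, with a median of 0.19. The median log2 ratio of the 8 members was 0.20 and that of all 5243 genes was -0.01, with quartiles of -0.22 and 0.18. None of the 8 reached a log2 ratio of 0.5 in size, against 4.27% of genes at 0.5 or more and 8.18% at -0.5 or less (0.343% and 0.668% past 1 and -1). None had knock columns apart from the control columns, a pattern seen in 0.0763% of genes upward and 0.114% downward. The 8 members thus leaned one way by amounts within the range of their columns. The median was 0.10 when control column 9, the deepest of its group, was left out, and all 8 members were still higher without it.

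With the 3′ method 7 members reached 50 CPM, of which 5 were higher and 2 lower in the library labelled knock. Of the 2826 genes at that level, 57.7% were higher and 42.3% lower. The Hsp90 pair stood at more than double the level, whereas the mitochondrial pair stood lower. Log2 ratios of 0.5 or more were reached by 3 members against 29.9% of genes, and of 1 or more by 2 members against 13.3%. No member at this level was at -0.5 or less, against 17.2% of genes (4.53% at -1 or less). Columns did not overlap for 3 members upward, against 24.6% of genes, and for 1 downward, against 11.7%. The median log2 ratio was 0.46 for the 7 members and 0.14 for all genes, with quartiles of -0.34 and 0.62. Ribosomal protein genes made up 24.1% of the median column labelled control and 16.1% of the median column labelled knock, and mitochondrially encoded genes 0.946 to 0.994% and 1.67 to 1.74% of a column, both with columns apart. With totals that left out both, the median log2 ratio was 0.32 for the 7 members and 0.01 for all genes. The 5 higher and 2 lower members kept their directions. Whether these genes account for the ratios was not tested. With TMM scaling the median of all genes went from 0.14 to -0.01 and with median-of-ratios scaling to -0.03, and the 5 higher and 2 lower members kept their directions under both.

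**Figure D1:**
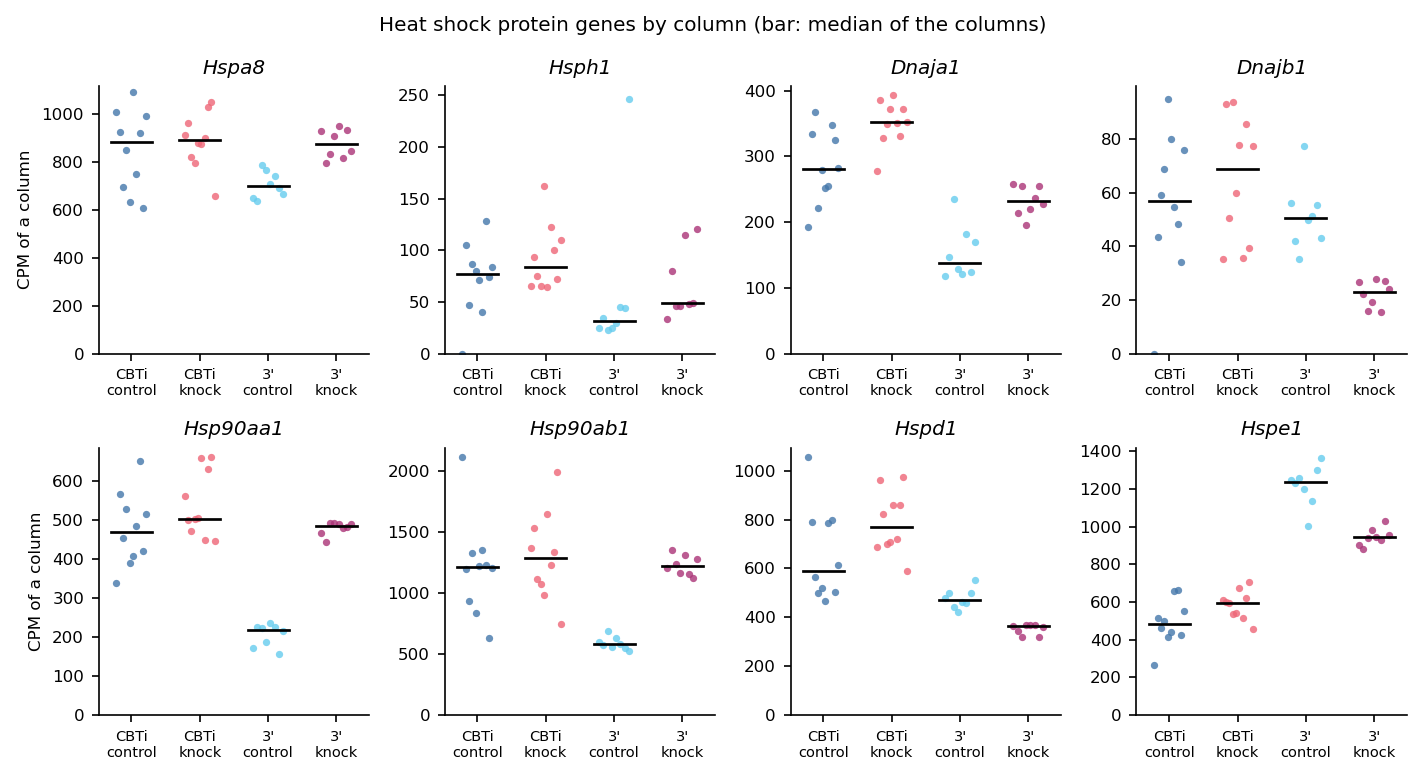
Level of the 8 members with more than a few counts, in CPM on linear axes, in every column of the 4 groups, each point a column and each bar the median of the columns. The 3′ columns labelled knock lie above those labelled control for Hspa8, Hsp90aa1 and Hsp90ab1, and below them for Hspd1 and Dnajb1. Of all genes at 50 CPM or more, 24.6% had 3′ columns apart upward and 11.7% downward. The CBTi-seq columns of all 8 overlap.

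Hspa8 (chr9:40800984-40810087, plus strand, GRCm38 and GENCODE vM21 here and below) encodes the constitutive cytosolic Hsp70, Hsc70, which also uncoats clathrin vesicles. In CBTi-seq its level was 779 CPM (752 to 808) in control cells and 849 CPM (819 to 880) in knock cells. The lowest, median and highest control columns were at 608, 886 and 1094 CPM and the knock columns at 660, 892 and 1052 CPM. The groups overlapped almost entirely, and the log2 ratio was 0.12 (0.05 to 0.20). It was 0.07 without control column 5, 0.04 without control column 9 and 0.21 without knock column 10. When counted by the 3′ method, Hspa8 was at 683 CPM for the library labelled control, with columns at 637, 701 and 786 CPM, and at 885 CPM in that labelled knock, with columns at 796, 877 and 949 CPM. These columns did not overlap, though the highest column labelled control and the lowest labelled knock lie close, and the log2 ratio was 0.37 (0.32 to 0.43). With TMM scaling the columns overlapped and the ratio was 0.24, and it was 0.21 with median-of-ratios scaling.

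The pseudogene Gm15459 was assigned a large part of the counts of this sequence, and the part differed between the methods. Of the counts of Hspa8 and Gm15459 together it held 35.5% (34.1 to 36.9, exact binomial) in the CBTi-seq control cells and 36.7% (35.3 to 38.1) in knock cells. In the 3′ method it held 68.0% (67.2 to 68.7) in the library labelled control and 72.0% (71.5 to 72.5) in that labelled knock. Over control and knock columns the share ran from 20.8 to 42.7% and 29.8 to 40.9% in CBTi-seq, whereas the 3′ columns ran from 64.7 to 71.7% and 70.3 to 74.7%, so no column of one method reached the range of the other. Within CBTi-seq the share of 20.8% was that of the shallowest column, at 41570 counts. Those of 42.7 and 40.9% were of the deepest control and knock columns, at 846819 and 735871 counts. A relation of this share to depth was not tested. With so few differing bases the counts of both are uncertain. Gm15459 itself went from 429 to 491 CPM in CBTi-seq (log2 ratio 0.20, 0.10 to 0.30) and from 1450 to 2280 CPM in the 3′ method (log2 ratio 0.65, 0.62 to 0.69), where its columns of 1223 to 1673 CPM and 2154 to 2497 CPM lay apart. When the counts of Hspa8 and its 5 near copies were added up, the log2 ratio was 0.16 (0.10 to 0.21) in CBTi-seq. With the 3′ method the sum went from 2178 to 3221 CPM, a log2 ratio of 0.56 (0.54 to 0.59). The 3′ value of Hspa8 alone, 0.37, was thus below that of the family. A smaller copy, Gm8355, held 4.78 and 5.10% of the joint counts with Hspa8 in CBTi-seq, and Gm6210 held 6.09 and 5.82% in the 3′ method.

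**Figure D2:**
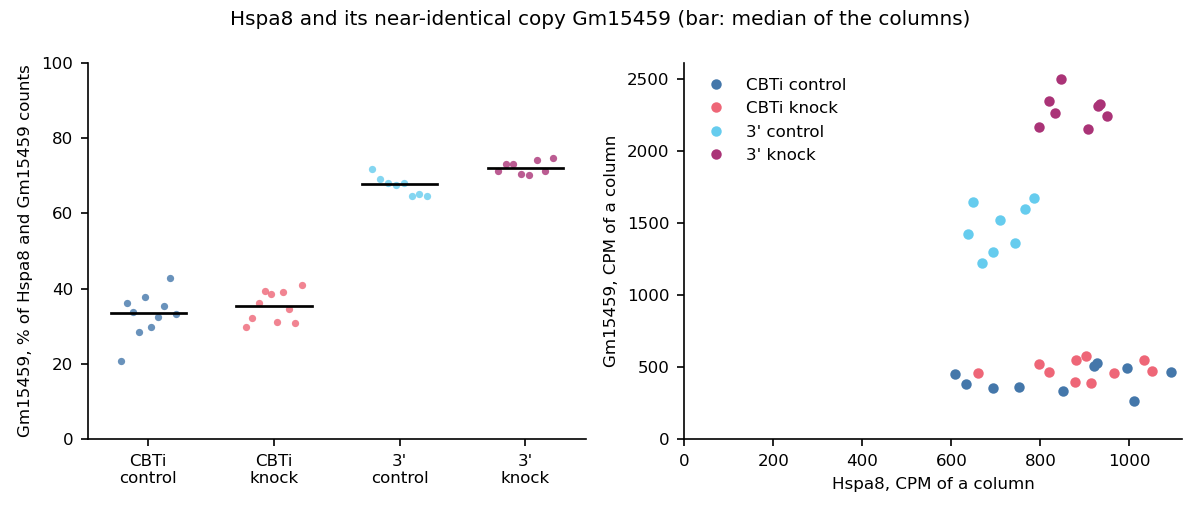
Left, the percent of the joint counts of Hspa8 and its pseudogene Gm15459 that fell on Gm15459, each point a column and each bar the median of the columns; right, the CPM of Gm15459 against that of Hspa8 in the same columns. The CBTi-seq columns lie between 20.8 and 42.7% and the 3′ columns between 64.7 and 74.7%.

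The stress-induced Hsp70 genes Hspa1a (chr17:34969190-34972156, minus strand) and Hspa1b (chr17:34956436-34959238, minus strand) were close to 0 in both methods and under both labels. In CBTi-seq Hspa1a had 4 counts in control cells (1.04 CPM, 0.282 to 2.65) and 1 count in knock cells. Hspa1b had 9 counts (2.33 CPM, 1.07 to 4.42), spread over 5 of 10 control columns, and 2 counts in knock cells. The log2 ratio of Hspa1b was -2.03, with an interval of -5.28 to 0.24 that includes no difference. When counted by the 3′ method, Hspa1a had 0 counts in the library labelled control, for which 3 counts would be 0.424 CPM and the exact Poisson interval reaches 0.522 CPM, and 1 count in that labelled knock, while Hspa1b had 1 and 5 counts. No difference between conditions was detectable for either gene at this depth. Their longest transcripts are 99.2% identical over 2201 bases, and how reads that match both were counted is not known here. Both the split between them and their low level are thus uncertain. Hspa1a also overlaps the gene Gm20481 on the opposite strand over 2225 bases.

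Hsph1 (chr5:149614287-149636376, minus strand) encodes the Hsp110 that acts as exchange factor of Hsp70. It stood at 77.9 CPM (69.4 to 87.3) in the CBTi-seq control cells and at 99.2 CPM (89.1 to 110.2) in knock cells, a log2 ratio of 0.35 (0.12 to 0.58). The control columns ran from 0 over 77.3 to 129 CPM and the knock columns from 64.8 over 83.8 to 163 CPM. The column at 0 was the shallowest of the assay. This was the highest ratio among the members, above those of 90.0% of genes, and the column ranges overlapped widely. It was 0.20 without knock column 5. In the 3′ method Hsph1 was at 51.5 CPM for the library labelled control and 70.6 CPM in that labelled knock (log2 ratio 0.46, 0.27 to 0.64). This ratio rested on single columns. Of the columns labelled control, 1 stood at 247 CPM while the next was at 45.1 CPM and the median at 31.8 CPM. The columns labelled knock ran from 33.2 over 48.5 to 120 CPM. The log2 ratio was 1.09 without the high control column, column 8, and 0.19 without knock column 5, and 0.21 without control column 2.

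The J-domain proteins Dnaja1 and Dnajb1 are the main partners that bring clients to cytosolic Hsp70, and they went apart in the 3′ method. Dnaja1 (chr4:40722150-40737149, plus strand) had a level of 304 CPM in the CBTi-seq control cells, with columns at 192, 281 and 368 CPM, and of 351 CPM in knock cells, with columns at 278, 352 and 393 CPM. The log2 ratio was 0.21 (0.09 to 0.32), and the knock columns lay within or just above the control range. With the 3′ method Dnaja1 was at 148 CPM for the library labelled control, with columns at 118, 138 and 235 CPM, and at 231 CPM in that labelled knock, with columns at 195, 232 and 258 CPM. The log2 ratio was 0.64 (0.53 to 0.75), and the groups overlapped only through control column 3. It was 0.48 with median-of-ratios scaling. The near copy Gm15542 held 4.86 and 5.16% of the joint counts with Dnaja1 in CBTi-seq. Dnaja1 overlaps Smu1 on the opposite strand over 608 bases, and whether strand was used in counting is not known here.

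Dnajb1 (chr8:83608193-83612653, plus strand), the Hsp40 that HSF1 induces with Hspa1a, was at 59.6 CPM in the CBTi-seq control cells and 68.4 CPM in knock cells, a log2 ratio of 0.20 with an interval of -0.07 to 0.47. Its control columns ran from 0 over 56.9 to 94.95 CPM and its knock columns from 35.3 over 68.7 to 93.7 CPM, so a difference was not detectable. The ratio was 0.04 without control column 9, 0.37 without control column 5 and 0.12 without knock column 4. When counted by the 3′ method, it had the lowest ratio of the members with more than a few counts, with 49.2 CPM for the library labelled control and 22.6 CPM for that labelled knock, a log2 ratio of -1.12 (-1.38 to -0.87). The columns labelled control were at 35.1, 50.5 and 77.5 CPM and those labelled knock at 15.5, 23.1 and 27.9 CPM. They did not overlap. Its mean level lay under 50 CPM, so it is not among the 7 members counted for the 3′ method.

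The cytosolic Hsp90 genes gave the highest ratios of the list in the 3′ method. Hsp90aa1 (chr12:110690605-110702728, minus strand), the stress-responsive form, was at 209 CPM for the library labelled control, with columns at 158, 219 and 235 CPM, and at 481 CPM in that labelled knock, with columns at 444, 484 and 492.5 CPM. The 2 sets of columns lay well apart, and the level was 2.30-fold higher (2.17 to 2.45; log2 ratio 1.20). Hsp90ab1 (chr17:45567775-45573271, minus strand), the constitutive form, was at 583 CPM with columns at 523, 580 and 694 CPM, and at 1236 CPM with columns at 1126, 1227 and 1357 CPM. It was 2.12-fold higher (2.04 to 2.20; log2 ratio 1.08), again with a wide gap between the columns. These ratios stood above those of 91.2% and 88.6% of the genes at 50 CPM or more. Under TMM and median-of-ratios scaling, which set the median of all genes near 0, they were 1.07 and 1.05 for Hsp90aa1 and 0.94 and 0.92 for Hsp90ab1.

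In CBTi-seq both genes had overlapping columns and smaller ratios. Hsp90aa1 was at 474 CPM in control cells and 515 CPM in knock cells (log2 ratio 0.12, 0.03 to 0.22). Its columns ran from 337 over 469 to 651 CPM and from 444 over 503 to 660 CPM. Hsp90ab1 was at 1018 and 1162 CPM (log2 ratio 0.19, 0.13 to 0.25), with columns from 629 over 1214 to 2117 CPM and from 743 over 1286 to 1999 CPM. The spread over columns was far wider than the difference, and the ratio of Hsp90ab1 was 0.04 without control column 9 and 0.32 without knock column 10, and that of Hsp90aa1 0.07 without control column 5. The difference between the 2 methods in these ratios was not tested. Near copies of Hsp90aa1 held counts in CBTi-seq, Gm12346 11.3 and 12.9% and Gm5844 3.33 and 5.44% of the joint counts with it, and with all 3 copies added the ratio was 0.17 in CBTi-seq and 1.22 in the 3′ method.

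**Figure D3:**
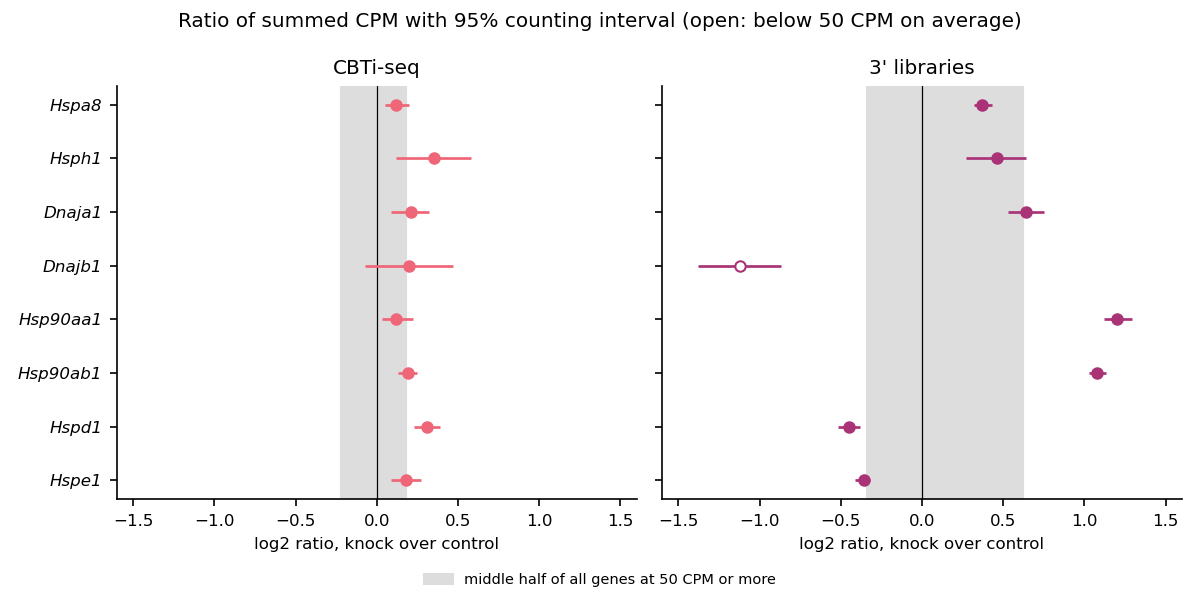
Log2 ratio of knock over control for 8 members with the 95% counting interval as a line, CBTi-seq left and the 3′ method right, with the range between the quartiles of all genes at 50 CPM or more in grey and an open circle for a member under 50 CPM. In CBTi-seq the members at that level lie between 0.12 and 0.35, and in the 3′ method between -0.45 for Hspd1 and 1.20 for Hsp90aa1, with Dnajb1, under 50 CPM, at -1.12.

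The mitochondrial chaperonin pair stood lower in the 3′ library labelled knock and slightly higher in the CBTi-seq knock cells. With the 3′ labels exchanged the log2 ratios would be 0.45 for Hspd1 and 0.36 for Hspe1, in the same direction as in CBTi-seq. Hspd1 (chr1:55077835-55088243, minus strand), which encodes Hsp60, was at 485 CPM in the 3′ library labelled control, with columns at 421, 470 and 554 CPM, and at 354 CPM in that labelled knock, with columns at 320, 363 and 369 CPM. No columns overlapped, and the log2 ratio was -0.45 (-0.52 to -0.38). Hspe1 (chr1:55088132-55091307, plus strand), which encodes its lid Hsp10, was at 1217 CPM with columns at 1001, 1237 and 1365 CPM, and at 947 CPM with columns at 880, 944 and 1032 CPM. Its columns overlapped slightly, and the log2 ratio was -0.36 (-0.41 to -0.32). With TMM scaling the columns of both genes were apart and the ratios were -0.59 and -0.50.

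In CBTi-seq Hspd1 was at 601 CPM in control cells, with columns at 467, 591 and 1058 CPM, and at 747 CPM in knock cells, with columns at 588, 771 and 974 CPM. The median column was higher in knock cells though the ranges overlapped, and the log2 ratio was 0.31 (0.23 to 0.39), above that of 87.8% of genes. Hspe1 was at 492 CPM with columns at 265, 481 and 664 CPM, against 559 CPM with columns at 458, 596 and 706 CPM, which is a log2 ratio of 0.18 (0.09 to 0.27). The pseudogene Hspd1-ps3 held 12.5 and 14.5% of the joint counts with Hspd1 in CBTi-seq, where its own log2 ratio was 0.56 (0.35 to 0.77), and the sum of both gave 0.35. Hspd1 and Hspe1 overlap on opposite strands over 112 bases at their shared start.

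Within a column the share of a pair of genes does not move with the scaling; these shares are of counts and not per length. Hsp90aa1 held 31.8% (30.6 to 33.0) of the Hsp90aa1 and Hsp90ab1 counts in the CBTi-seq control cells and 30.7% (29.5 to 31.9) in knock cells, with column ranges of 13.7 to 40.0% and 24.6 to 37.4%. The lowest control share was that of the shallowest column, at 41570 counts, and the highest that of the deepest, at 846819 counts. The highest knock share was that of the deepest knock column, at 735871 counts. A relation of this share to depth was not tested. In the 3′ method it held 26.4% (25.2 to 27.5) and 28.0% (27.3 to 28.7), with column ranges of 22.2 to 29.1% and 24.7 to 29.9%. Both Hsp90 genes thus kept nearly the same proportion to each other between the libraries. Hspd1 held 55.0% (53.5 to 56.5) and 57.2% (55.8 to 58.7) of the Hspd1 and Hspe1 counts in CBTi-seq. With the 3′ method it held 28.5% (27.7 to 29.3) and 27.2% (26.4 to 28.0). This share differed more between the methods than between the conditions: the lowest CBTi-seq column was at 50.0% and the highest 3′ column at 31.6%.

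Set side by side under the same label, the methods placed several members at different levels. Hspe1 was higher in the 3′ method by a log2 ratio of 1.31 under the control label and 0.76 under the knock label, with columns apart both times. Dnaja1 was lower in the 3′ method by -1.03 and -0.60 on the log2 scale, with columns apart under the knock label. Hsp90aa1 was lower by -1.18 under the control label, with columns apart, and differed by only -0.10 under the knock label, with overlapping columns. Hsp90ab1 gave -0.80 and 0.09 in the same order. Taken against CBTi-seq, the Hsp90 genes were thus closer in level under the knock label than under the control label. The CBTi-seq level of Hsp90ab1 itself moved with depth, as described below, and ratios between the methods over all genes are not given here. Which library was the unusual one cannot be told from these values. For Hspd1 the values were -0.31 and -1.08 and for Dnajb1 -0.27 and -1.6, so here the library labelled knock was the one farther from CBTi-seq. The methods' libraries were made and counted separately, and these differences were not tested.

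The CBTi-seq levels of the most abundant members moved with the depth of a column. Spearman's rho between the CPM of Hsp90ab1 and the total of the column was -0.85 over the 10 control columns and -0.94 over the 10 knock columns, and for Hspa8 it was -0.78 and -0.76. These are descriptions over columns that share a sample and whose CPM has the total in its denominator. For Hspe1 rho was -0.02 and -0.75, for Hspd1 -0.20 and -0.59, for Hsp90aa1 0.12 and -0.58 and for Dnaja1 0.71 and -0.16. The less abundant Hsph1 and Dnajb1 had values from 0.10 to 0.45. Other abundant genes showed the same pattern: over the 253 genes at 500 CPM or more the median rho was -0.71 and -0.83, and it was negative for 93.7% and 99.2% of them, while over the 2402 genes from 100 to 500 CPM the medians were 0.20 and 0.18. When counted by the 3′ method, the medians over the 309 genes at 500 CPM or more were -0.07 and 0.10. The highest count of any gene in a CBTi-seq column lay between 399 and 638 at every depth, against 10578 to 67257 in a 3′ column. Such a top would be met if the number of distinct identifiers (UMIs) per gene were limited. In that case the CPM of Hsp90ab1 and Hspa8 would be understated, most of all in the deepest columns. Columns of unlike depth could then differ in CPM for that reason alone. The UMI length is not given in the sources at hand and this was not tested. A correction for repeated UMIs was made with a smaller and a larger assumed pool. The log2 ratio of Hsp90ab1 was 0.19 both times and that of Hspa8 0.11 and 0.12. Both pools were larger than the highest count of any gene in a CBTi-seq column. A limit near that count was thus not corrected for, and its part in these ratios was not tested. Hsp90ab1 reached a median of 71.9% and 70.0% of that highest count in the CBTi-seq control and knock columns, and Hspa8 55.1% and 51.4%. In the 3′ method Hsp90ab1 reached 2.11% and 4.18%. A fit with column depth as a covariate was added after the data were seen. It also weighted columns equally and took logarithms with 10 CPM added. Its change from the ratios of summed counts is thus not that of depth alone. For Hsp90ab1, Hspa8 and Hspd1 it gave 0.14, 0.09 and 0.29. Summed counts gave 0.19, 0.12 and 0.31, and equal column weights without depth 0.11, 0.07 and 0.26. For Hspe1, Hsph1, Dnaja1, Dnajb1 and Hsp90aa1 the fit gave 0.28, 0.50, 0.30, 0.30 and 0.18. Summed counts gave 0.18, 0.35, 0.21, 0.20 and 0.12 for these, and equal column weights 0.26, 0.37, 0.30, 0.21 and 0.18. The median of the 8 was 0.29 in the fit, 0.20 from summed counts and 0.23 from equal column weights. In that fit 59.4% of all genes were higher in knock cells.

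**Figure D4:**
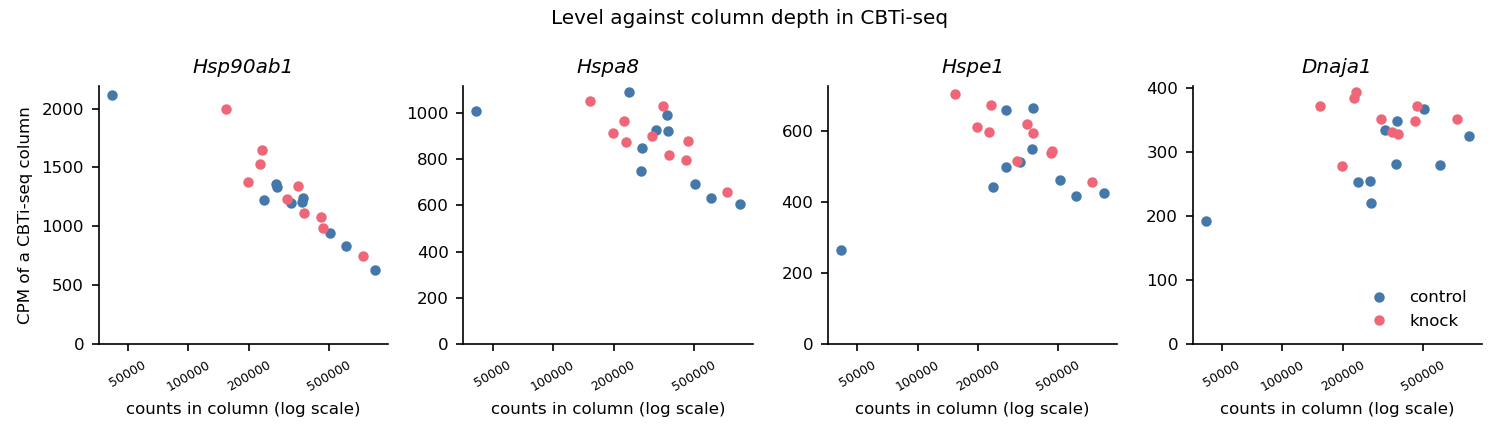
CPM of Hsp90ab1, Hspa8, Hspe1 and Dnaja1 in each CBTi-seq column against the total count of the column on a log axis, control and knock columns in separate colours. Hsp90ab1 and Hspa8 are lower in deeper columns of both groups (rho of -0.85 and -0.94 for Hsp90ab1), and control and knock columns overlap.

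In CBTi-seq the most abundant members went together over the knock columns, and only some of their pairs did over the control columns. Correlations among other abundant genes are not given here, so this is not shown to be particular to the list. Among the 5 with the highest mean level, Hsp90ab1, Hspa8, Hspd1, Hspe1 and Hsp90aa1, a grouping made after the values were seen, all 10 pairs had a rho of 0.52 to 0.90 in the knock columns, where each of the 5 also had a negative rho with depth. In the control columns the 10 pairs had 0.03 to 0.88. The 3′ columns gave these pairs -0.86 to 0.52 under the control label and -0.48 to 0.62 under the knock label. Over the 28 pairs of the 8 members in CBTi-seq, rho ranged from -0.61 to 0.88 with a median of 0.12 in the control columns, and from -0.53 to 0.90 with a median of 0.22 in the knock columns. Over the 21 pairs of 7 members in the 3′ method, the median was 0.10 and -0.05. The Spearman coefficient of Hspd1 with Hspe1, which share a promoter region, was 0.27 and 0.71 in CBTi-seq, and with the 3′ method 0.52 and -0.05. For Hsp90aa1 with Hsp90ab1 it was 0.09 and 0.70, and 0.48 and -0.10. Depth is shared by the points of each value.

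The chaperone genes around the members were counted from 6 lists of 78 genes. In CBTi-seq 58 of them reached 50 CPM, of which 35 were higher and 23 lower in knock cells, with a median log2 ratio of 0.06 against -0.01 for all genes. Of all genes at that level 49.1% were higher and 50.9% lower, the shares to set beside the counts of each list. Mitochondrial chaperones and proteases were higher for 11 of 12, with a median of 0.20 like that of the members. Trap1, the mitochondrial Hsp90, went from 57.2 to 83.8 CPM (0.55, 0.29 to 0.81) and Timm44, which tethers Hsp70 to the import channel, from 69.7 to 98.4 CPM (0.50, 0.26 to 0.73). The exception was Clpx, the unfoldase of the ClpP protease, at 81.8 and 47.1 CPM (-0.80, -1.08 to -0.52). All 4 heat shock factors and regulators at this level were lower, with a median of -0.40. Among them Hikeshi, the nuclear import carrier of Hsp70, was at 155 and 101 CPM (-0.61, -0.81 to -0.42), the factor Hsf2 at 67.8 and 45.9 CPM (-0.56, -0.86 to -0.27), and the HSF1-binding protein Hsbp1 at 153 and 130.3 CPM (-0.23). Column ranges of all these genes overlapped.

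Other Hsp70 genes and Hsp70 cofactors were split in CBTi-seq, with 7 higher and 6 lower. They included the Hsp110 relative Hspa4l at -0.49, the exchange factor Bag3 at -0.29 and Hspa13 at 0.33. J-domain proteins were split as well, 5 higher and 6 lower, from Dnajc13 at -0.58 to Dnajc8 at 0.31 and Dnaja2 at 0.27. Of 15 Hsp90 co-chaperones 10 were higher, among them the cyclophilin Ppid at 0.41 and the ATPase activator Ahsa1 at 0.31, while the TPR protein Tomm34 was at -0.33. Of the genes listed by name as small heat shock proteins, Hspb6 was at -0.45, Hspb11 at 0.16 and Hspb8 at 0.01.

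With the 3′ method 32 of the 78 genes reached 50 CPM, of which 26 were higher and 6 lower in the library labelled knock, with a median of 0.40 against 0.14 for all genes. Of all genes at that level 57.7% were higher and 42.3% lower, the shares to set beside the counts of each list. Columns lay apart upward for 24.6% of all genes and downward for 11.7%. All 7 Hsp70 cofactors at this level were higher, with a median of 0.76. Stip1, the adaptor that passes clients from Hsp70 to Hsp90, went from 64.7 CPM for the library labelled control to 134 CPM in that labelled knock (1.05, 0.90 to 1.21) with columns apart. Bag6 was at 0.97 and the Hsp110 Hspa4 at 0.81. Of 9 Hsp90 co-chaperones 7 were higher. The kinase adaptor Cdc37 went from 117 to 239 CPM (1.04, 0.92 to 1.15) and the immunophilin Fkbp4 from 109 to 201 CPM (0.89, 0.76 to 1.01), both with columns apart, like the Hsp90 genes they serve. Tomm34 went the other way, from 69.3 to 33.9 CPM (-1.03, -1.24 to -0.82), with columns apart.

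J-domain proteins were higher for 4 of 5 in the 3′ method, with Dnajc2 at 0.57, Dnaja2 at 0.29 and Dnajc5 at 0.21, and both small heat shock proteins were higher, Hspb6 at 1.09 and Hspb8 at 0.40. Mitochondrial chaperones and proteases were higher for 6 of 7, with Clpb at 0.70, Lonp1 at 0.66 and Grpel1 at 0.49, with the opposite sign to the members Hspd1 and Hspe1. Hikeshi was at -0.38 and Hsbp1 at -0.27, with the sign they had in CBTi-seq, and exchanged labels would make these 0.38 and 0.27, opposite to CBTi-seq. The 2 methods share no columns, and no test of a list was made.

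**Figure D5:**
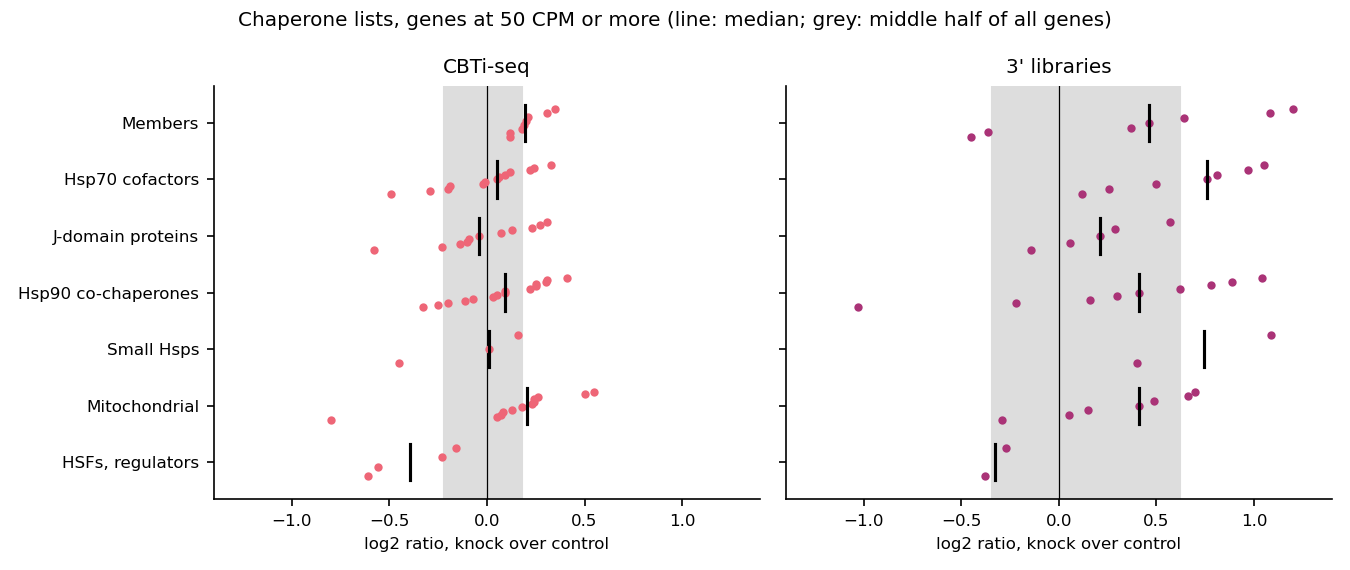
Log2 ratio of knock over control for each gene at 50 CPM or more in the members and in the 6 chaperone lists, CBTi-seq and the 3′ method side by side, each point a gene, each bar the median of the list and the grey band the range between the quartiles of all genes at that level. In CBTi-seq the medians lie between -0.40 and 0.20, and in the 3′ method between -0.33 and 0.76.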

How the data were processed

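The authors deposited 1 table of UMI counts per gene symbol for CBTi-seq (20717 rows) and 2 tables of counts per Ensembl gene for the 3′ method (55402 IDs each). The submitters' processing notes list STAR 2.7.11b, Picard and FastQC, and the builds GRCm38 and GRCh38 with no role. The sources used here do not give the counting tool, its strand setting, any filter, or the kind of 3′ counts (reads or UMIs). PCR counts without identifiers are not independent molecules. If the 3′ counts are reads, their intervals are too narrow even for counting error. GENCODE vM21 named 55141 of the 55402 IDs, and the unnamed ones held 0.0194 and 0.0329% of the counts. In 22 CBTi-seq rows the symbol had been turned into a date.

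Counts of the columns of a group were summed, divided by their total and compared as log2 ratios with exact 95% intervals (Python 3.11.15, scipy 1.17.1). Genes counted for directions had a mean of 50 CPM or more over both groups. With 1 sample per group no model was fitted for a p-value. The columns were mapped to groups by their names. Near copies were transcripts of at least 95% identity over at least 300 bases (blastn 2.17.0). Named were all members, up to 3 genes per list and method with the largest log2 ratio in size, Rrm2 and copies holding at least 5% of the counts of a member in a group. The members and lists were chosen with earlier results of these data known. Alternatives were edgeR 4.0.16 TMM and DESeq2 1.42.0 median-of-ratios factors, equal weights of columns, totals without mitochondrial and ribosomal protein genes, thinning to 50000 counts (mean of 20 draws, a number set after a single draw proved noisy), a correction for repeated UMIs with pools of 1024 and 4096, added near copies, other level limits, and leaving out each column. The calculations were tested on simulated data.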

Additional observations from a re-analysis of the deposited data

Results flagged for a closer look

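In 2 of 32 sets of columns (8 members in 4 groups) an end column lay farther from the rest than Dixon's limit at 95%, where about 1.6 sets would by chance. Hsp90ab1 stood at 2117 CPM in CBTi-seq control column 1 while the next column was at 1356 CPM, a gap of 0.511 of the range, and this was the shallowest column of the assay with 41570 counts. Hsph1 stood at 246.6 CPM in column 8 of the 3′ library labelled control while the next was at 45.1 CPM, a gap of 0.899 of the range.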

How the results depend on the processing

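No paired analysis was possible because no group has more than 1 sample and the column numbers are not said to pair anything. None of the log2 ratios of members at 50 CPM or more changed direction, apart from Dnajb1 in CBTi-seq, at -0.02 when columns were thinned to 50000 counts, which made 1 member lower. Without a level limit 2 CBTi-seq members were lower and 2 were at -0.5 or less, Hspa1a and Hspa1b. With column depth as a covariate, an alternative added after the data were seen, 1 CBTi-seq member, Hsph1, was at 0.5. The 3′ median of 0.46 was 0.31 with equal weights of columns, 0.32 with TMM, 0.30 with median-of-ratios factors and 0.31 after thinning. Members of the 3′ method at 0.5 or more numbered 2 in place of 3 with TMM and median-of-ratios factors, and those apart upward 2 in place of 3 (without Hspa8) under these, under totals without ribosomal protein and mitochondrial genes, and after thinning. Members of the 3′ method at -0.5 or less numbered 2 under both TMM and median-of-ratios scaling, and 1 when the total left out ribosomal protein and mitochondrial genes, at a limit of 20 CPM and with no limit. Members with all columns labelled knock below those labelled control numbered 2 under each of these 5 settings. The scaling moved all genes: 57.7% were higher with plain totals, 49.5% with TMM and 48.2% with median-of-ratios factors. With totals that left out ribosomal protein and mitochondrial genes 50.5% were higher. Shares of all genes past a ratio or with columns apart are not given for these settings. The counts of members under them are thus not read as a result about the members. Leaving out each column in turn gave medians from 0.10 to 0.23 in CBTi-seq and from 0.32 to 0.66 in the 3′ method, the last without control column 8. It gave 3 to 4 members of the 3′ method at 0.5 or more, 3 to 4 with columns apart upward and 1 to 2 apart downward, the 2 without control column 5 or knock column 7. The share of Hsp90aa1 in its pair, knock minus control, ran from -2.21 to 0.466 percentage points in CBTi-seq (0.466 without control column 9) and from 1.09 to 2.65 in the 3′ method. That of Hspd1 ran from 1.87 to 2.86 and from -1.47 to -0.851. The causes were not tested. With 1 sample per group, spread between cultures is unknown, and 3 counts in a group correspond to between 0.327 and 0.855 CPM.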
